A study of Mus musculus with 119 samples.

Results

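The late LPS response of Elk1-/-Elk4-/- bone marrow–derived macrophages (BMDMs) was read from 8 of the 119 RNA-seq libraries of the series: the 4 libraries of this genotype after 2 h of LPS were compared with its 4 libraries after 1 h. Membership came from the sample labels alone, and no measured value was used. The series tested how the kinase TPL-2 and factors downstream of it shape LPS-induced transcription in macrophages. All libraries used here were from mouse BMDMs labelled strain C57BL/6(NIMR), grown from marrow in L-cell conditioned medium and held overnight in medium with little serum. Elk1-/-Elk4-/- cells carry knockout alleles of the genes of the transcription factors ELK1 and ELK4. They were stimulated with 100 ng/ml LPS. Cells of 2 other genotypes, given the same LPS, served as comparison: WT (6 libraries at 1 h and 4 at 2 h) and Map3k8[D270A] (6 at each time), in which a point mutation inactivates the TPL-2 kinase. The labels assign the Elk1-/-Elk4-/- libraries to an experiment of their own, separate from that of the WT and Map3k8[D270A] libraries, so genotype and experiment cannot be told apart in any comparison across genotypes. The comparison of 2 h with 1 h lies within a single experiment. The labels do not say whether same-genotype libraries came from separate mice. The p values therefore rest on the spread between libraries within groups, pooled over the 62 libraries in the fit.

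LPS is sensed by TLR4, which signals through the adaptors MyD88 and TRIF to NF-κB, to the MAP kinases and to IRF3. In macrophages the kinase TPL-2 (encoded by Map3k8) activates ERK1/2, and ERK phosphorylates the ternary complex factors (TCFs) ELK1, ELK4 and ELK3, which bind DNA with the serum response factor SRF and switch on immediate early genes such as Fos and Egr1. Immediate early transcripts are made within minutes, are short-lived, and are followed by a later wave in which IFN-β, secreted by the cell, acts back through its receptor to induce the interferon-stimulated genes.

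The promoter stretches below come from genes of the responding groups described further on, and are those with the largest change, in the direction named, whose upstream part holds the motif. They are shown because the motifs whose shares are given after them can be read in them. Each is the part of a RefSeq promoter window (GRCm38.p6) around the match nearest to the start site, with up to 60 bases on each side and all of it upstream of the start site of that window, printed 5′ to 3′ on the gene's strand. For Egr2, Errfi1 and Dusp8 that start site, and the stretch shown, lie inside the gene's annotated span. In 3 genes of the interferon-stimulated list that rose, capitals mark the ISRE core (GAAA, any 2 bases, GAAA, on either strand), the site of the interferon-activated complex ISGF3 and of IRFs.
Tgtp1, chr11:48992254-48992383, minus strand: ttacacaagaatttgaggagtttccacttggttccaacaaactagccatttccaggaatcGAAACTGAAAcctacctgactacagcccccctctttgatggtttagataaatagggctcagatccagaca
Gbp5, chr3:142496709-142496838, plus strand: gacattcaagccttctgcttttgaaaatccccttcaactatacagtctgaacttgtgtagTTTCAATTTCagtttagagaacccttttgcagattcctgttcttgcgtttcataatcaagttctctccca
Rsad2, chr12:26456503-26456632, minus strand: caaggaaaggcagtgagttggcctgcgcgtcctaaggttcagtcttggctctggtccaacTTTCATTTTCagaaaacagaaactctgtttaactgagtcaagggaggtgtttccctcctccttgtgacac
In Egr2, an immediate early gene that fell, capitals mark a CArG box, the site of SRF, in 1 of its 5 windows.
Egr2, chr10:67537434-67537563, plus strand: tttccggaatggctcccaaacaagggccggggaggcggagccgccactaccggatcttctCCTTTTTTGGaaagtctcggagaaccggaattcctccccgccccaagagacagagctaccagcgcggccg
In 2 chemokine genes that rose, capitals mark NF-κB sites, which were also found in the windows of Cxcl1 and Cxcl2, the chemokine genes that fell.
Cxcl10, chr5:92348923-92349052, minus strand: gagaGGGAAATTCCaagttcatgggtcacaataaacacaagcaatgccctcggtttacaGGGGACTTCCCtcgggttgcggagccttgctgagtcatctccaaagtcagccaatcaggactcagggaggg
Cxcl3, chr5:90785969-90786098, plus strand: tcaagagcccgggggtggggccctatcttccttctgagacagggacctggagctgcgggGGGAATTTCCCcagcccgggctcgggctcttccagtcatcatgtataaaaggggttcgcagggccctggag
In 3 genes of ERK and MAP kinase feedback that fell, capitals mark the cAMP response element (TGACGTCA), the site of CREB and ATF factors.
Errfi1, chr4:150854959-150855069, plus strand: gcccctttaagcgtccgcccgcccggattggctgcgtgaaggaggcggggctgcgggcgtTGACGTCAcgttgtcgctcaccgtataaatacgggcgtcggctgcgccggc
Dusp8, chr7:142095285-142095407, minus strand: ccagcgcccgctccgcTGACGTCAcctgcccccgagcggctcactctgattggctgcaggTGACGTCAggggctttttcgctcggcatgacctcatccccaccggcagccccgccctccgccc
Dusp1, chr17:26508548-26508675, minus strand: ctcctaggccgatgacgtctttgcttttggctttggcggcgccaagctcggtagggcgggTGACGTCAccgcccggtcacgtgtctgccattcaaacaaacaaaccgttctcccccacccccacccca

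Over all promoters, 9526 of the 11884 genes tested had a window of 300 bases (250 before to 50 after the start), and a gene with several windows counted if any of them held the motif on either strand. The ISRE core was found in 12.5% of the 400 genes with a window that were called higher at 2 h, in 3.96% of the 202 called lower and in 3.93% of all 9526. It stood in the windows of 25 of the 38 interferon-stimulated genes that had one. The cAMP response element showed the opposite order, with 2.25% of the genes called higher, 8.42% of those called lower and 3.68% of all. The AP-1 site TGANTCA was held by 12.2%, 5.94% and 6.33% of these sets, and the NF-κB site by 17.5%, 17.3% and 12.3%. The CArG box was rare in all of them, at 2%, 2.48% and 1.48%. For the ETS-type core CCGGAAGT the shares were 2.75%, 3.96% and 9.7%, and for the NRF1 site (GCGCA, any base, GCGC) 5.5%, 9.41% and 12.1%. The C/EBP site TTGCGCAAT was found in 1 gene called higher, in none called lower and in 9 of all. The AP-1, cAMP response element and CArG motifs read the same on both strands, and matches of the NF-κB motif can overlap each other. These are shares of letters in windows and were not tested.

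The deposited values are normalized and on a log2 scale, with 1 value per gene and library, so their depth is unknown and the spread between replicate libraries sets the precision. The 8 libraries had medians of 9.07 to 9.10, and none was identical to another. Their root mean square distance from their group's mean was 0.0854 to 0.14 over genes. The 45S ribosomal RNA precursor gene Rn45s read 14.66, 16.60, 18.36 and 15.58 in the 1 h libraries and 14.80, 14.45, 15.06 and 15.27 in the 2 h libraries, so that 1 h replicate 3 stood above the others. The genotype was checked in the transcripts: Elk1 (chrX:20933395-20950608) read 6.28 to 6.42 at 1 h and 6.17 to 6.41 at 2 h, against a mean of 9.40 in WT at 1 h. Elk4 (chr1:132007577-132026448) read 5.61 to 5.85 at 1 h and 5.53 to 5.83 at 2 h, against 8.04 in WT. Macrophage markers were high, with Lyz2 at a mean of 17.62, Cd68 at 15.37 and Csf1r at 15.07 at 1 h.

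From 1 h to 2 h, 32 of 50 interferon-stimulated genes, 8 of 20 chemokine genes and 10 of 27 effector genes such as Nos2 rose, while 10 of 26 immediate early genes and 9 of 16 genes of MAP kinase feedback fell. Of 24 cytokine genes, 7 rose and 8 fell. A gene was called changed at a limma adjusted p below 0.05 and a log2 difference of at least 1. By this rule 500 of 11884 genes (4.21%) were higher at 2 h and 262 (2.2%) were lower. The adjusted p alone was passed by 4136 genes higher (34.8%) and 3205 lower (27%). The median difference of all genes was 0.0288. Below, "rose" and "fell" are kept for called genes, and differences are log2 differences, 2 h minus 1 h, for 4 libraries at each time. Their SE comes from the limma fit, whose residual spread is pooled over 62 libraries of 3 genotypes, so it can be wider or narrower than the spread of the libraries compared. The transformation behind the deposited values is not named in the sources used here and may compress differences, so no fold is read from them.

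**Figure D1:**
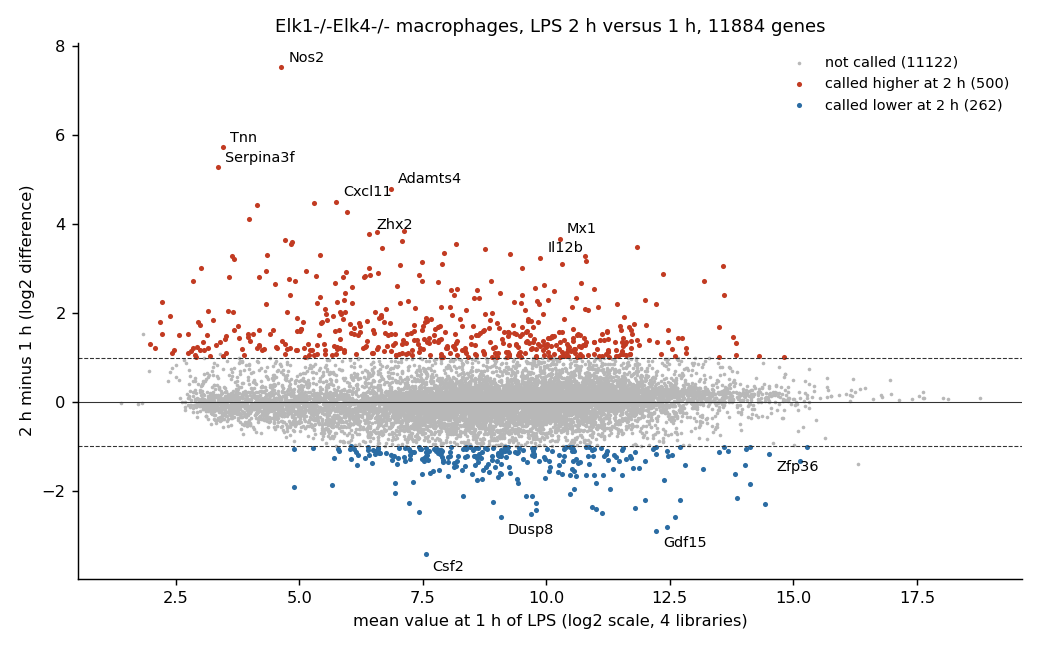
Difference between 2 h and 1 h of LPS (log2) for the 11884 genes tested in Elk1-/-Elk4-/- BMDMs, plotted against the mean value at 1 h (log2 scale, 4 libraries). Coloured points are the 500 genes called higher and the 262 called lower, and the rises reach further (Nos2, 7.53) than the falls (Csf2, -3.43).

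The largest rise among genes whose groups did not overlap was that of Nos2 (chr11:78920787-78960226), the inducible nitric oxide synthase. It read 4.59, 4.44, 4.83 and 4.70 at 1 h and 12.23, 12.26, 12.06 and 12.12 at 2 h, and its mean without LPS had been 3.91. The groups lay far apart (7.53 ± 0.50, adjusted p = 2.39e-19), and their SDs of 0.17 and 0.09 were smaller than the pooled SE. Tnn (chr1:160085029-160153692), which encodes the matrix protein tenascin-N, read 3.86, 3.10, 3.45 and 3.43 at 1 h and 9.49, 9.66, 8.81 and 8.83 at 2 h (5.74 ± 0.36, adjusted p = 2.07e-20). Serpina3f (chr12:104214544-104221129), of the serine protease inhibitor family, read 3.34, 3.22, 3.51 and 3.32 at 1 h and 9.33, 8.30, 7.80 and 9.10 at 2 h (5.28 ± 0.41, adjusted p = 1.88e-16). At 2 h its replicates 1 and 4 were above replicates 2 and 3. Adamts4, an aggrecan-cleaving protease, read 6.86, 6.83, 6.66 and 7.06 at 1 h and 11.77, 11.67, 11.07 and 12.07 at 2 h (4.79 ± 0.32, adjusted p = 5.12e-19). Cxcl11, a gene of the chemokine family that RefSeq annotates here as a transcribed pseudogene, read 5.44, 5.85, 5.69 and 5.96 at 1 h and 11.01, 10.56, 10.48 and 8.90 at 2 h, with replicate 4 the lowest of its 2 h group and still above every 1 h library (4.50 ± 0.35, adjusted p = 1.55e-16). The other genes among the 12 largest rises were Cxcl9 (4.47), Tgtp1 (4.43), Fscn1 (4.28), Mab21l3 (4.10), Il27 (3.84), Socs1 (3.82) and Zhx2 (3.77). Zhx2, a transcriptional repressor, had narrow groups, 6.33 to 6.53 at 1 h and 10.11 to 10.27 at 2 h (3.77 ± 0.12, adjusted p = 1.02e-32). Serpina3f, Serpina3g and Tgtp1 have closely similar neighbours, so reads may have been shared between copies.

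The largest fall was that of Csf2 (chr11:54247270-54249899), the cytokine GM-CSF. It read 7.34, 7.77, 7.63 and 7.47 at 1 h and 3.71, 4.33, 4.12 and 4.35 at 2 h, and its mean without LPS had been 3.52 (-3.43 ± 0.25, adjusted p = 5.8e-18). Gdf15, a stress-induced member of the TGF-β family, read 12.14, 12.36, 12.55 and 11.81 at 1 h and 9.30, 9.31, 9.45 and 9.22 at 2 h (-2.90 ± 0.13, adjusted p = 1.25e-25). Its 1 h values spread more than its 2 h values, and the groups did not overlap. The leukemia inhibitory factor gene Lif read 7.30, 7.62, 7.39 and 7.38 at 1 h and 4.67, 5.21, 4.97 and 4.91 at 2 h (-2.48 ± 0.15, adjusted p = 2.51e-20). Kdm6b, a histone H3K27 demethylase, read 10.95 to 11.13 at 1 h and 8.30 to 8.75 at 2 h (-2.42 ± 0.17). Irf2bp2, which encodes a partner of IRF2, read 10.79 to 11.02 at 1 h and 8.51 to 8.60 at 2 h (-2.36 ± 0.11), and Fam214a fell by 2.44. The other genes among the 12 largest falls belong to the groups below.

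**Figure D2:**
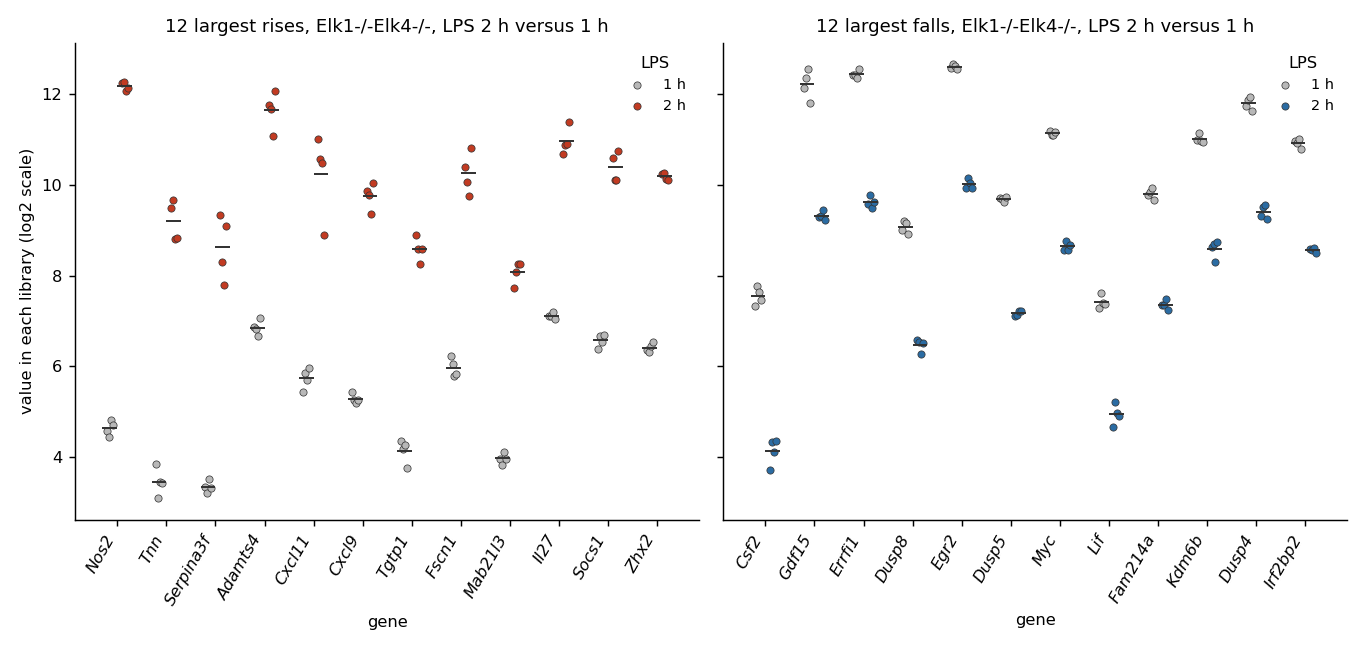
Value of each library (log2 scale) for the 12 called genes with the largest rises and the 12 with the largest falls, among genes whose groups do not overlap. Points are the 4 Elk1-/-Elk4-/- libraries at 1 h and the 4 at 2 h, and Cxcl11 has a single low 2 h library at 8.90.

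Immediate early genes, several of them textbook targets of TCFs and SRF, were mostly lower at 2 h. Of 26 measured members, 10 fell and 1 rose, with a median difference of -0.85, against 2.2% of all genes lower and 4.21% higher. Fos, a subunit of AP-1, read 11.36, 11.27, 11.27 and 11.27 at 1 h and 9.38, 9.26, 9.32 and 9.36 at 2 h (-1.96 ± 0.11, adjusted p = 1.84e-21). Its mean in this genotype had been 11.04 without LPS and 13.02 at 0.5 h. Egr2 read 12.55 to 12.66 at 1 h and 9.92 to 10.15 at 2 h (-2.58 ± 0.18) and Egr3 8.21 to 8.41 at 1 h and 6.13 to 6.27 at 2 h (-2.12 ± 0.16). Both are zinc finger factors of the family of Egr1. Nr4a1, an orphan nuclear receptor, read 9.72, 9.79, 9.53 and 9.78 at 1 h and 7.50, 7.55, 7.43 and 7.86 at 2 h (-2.12 ± 0.17, adjusted p = 1.67e-16). The others that fell were Myc (-2.49), Btg2 (-2.20), Plk3 (-1.36), Maff (-1.28), Junb (-1.07) and Jun (-1.01). Without 1 h replicate 3, the library with the high Rn45s value, 9 genes of the list fell.

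Egr1 was low at both times in these cells. It read 7.33, 7.45, 7.52 and 7.11 at 1 h and 6.49, 6.44, 6.40 and 6.52 at 2 h, a difference of -0.89 ± 0.16 (adjusted p = 5.65e-06) that did not reach the threshold of 1, although the groups did not overlap. The same genotype had a mean of 7.02 without LPS and 8.88 at 0.5 h. Fosb read 6.87 to 6.98 at 1 h and 6.50 to 6.52 at 2 h (-0.43 ± 0.17, adjusted p = 0.0304) and was not called. The exception in the list was Nr4a3, a relative of Nr4a1, which read 4.63, 5.14, 4.76 and 5.12 at 1 h and 7.65, 7.68, 7.69 and 7.54 at 2 h (2.73 ± 0.20, adjusted p = 2.67e-17) and rose.

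The regulators that bind at these genes were not called, although some were lower by the adjusted p alone. Srf read 10.35 to 10.39 at 1 h and 9.96 to 10.08 at 2 h (-0.32 ± 0.05, adjusted p = 4.51e-07). Elk3, the remaining TCF, read 10.48 to 10.51 at 1 h and 10.36 to 10.43 at 2 h (-0.09 ± 0.04, adjusted p = 0.032). None of the 6 genes of the ternary complex list, which includes Elk1 and Elk4, was called, against 4.21% of all genes higher and 2.2% lower. By the adjusted p alone 4 of the 6 were lower and none higher, against 27% and 34.8% of all genes. Beside Srf and Elk3 these were Mkl1 (-0.59) and Mkl2 (-0.37). Among 12 SRF-linked cytoskeletal genes, Filip1l rose, reading 9.31 to 9.53 at 1 h and 10.80 to 11.01 at 2 h (1.53 ± 0.16), and none fell, a count of 1 against 4.21% of all genes higher. Their median was 0.27.

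Some of the genes that restrain ERK and its receptors fell as well. Of 16 members of the MAP kinase feedback list, 9 fell and none rose (median -1.10), against 2.2% of all genes lower. By the adjusted p alone 11 were lower and 3 higher, against 27% and 34.8% of all genes. The 3 higher ones, not called, were Dusp14 (0.77), Dusp16 (0.48) and Spred1 (0.39). Errfi1 (MIG6), an inhibitor of the EGF receptor, read 12.43, 12.42, 12.35 and 12.56 at 1 h and 9.58, 9.78, 9.49 and 9.62 at 2 h (-2.82 ± 0.19, adjusted p = 4.63e-19). The MAP kinase phosphatase Dusp8 read 9.02, 9.20, 9.17 and 8.92 at 1 h and 6.59, 6.53, 6.28 and 6.51 at 2 h (-2.60 ± 0.12, adjusted p = 2.63e-25). Dusp5, a nuclear ERK phosphatase, read 9.62 to 9.73 at 1 h and 7.10 to 7.23 at 2 h (-2.52 ± 0.21), and Dusp4 fell by 2.39. The remaining falls were Spry1 (-2.06), Dusp1 (-1.41), Dusp7 (-1.22), Dusp6 (-1.12) and Spry2 (-1.08). The cAMP response elements of Errfi1, Dusp8 and Dusp1 are those printed above.

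Of 10 genes of the mRNA decay list, which encode proteins that bind or degrade cytokine mRNA, 4 fell and none rose, against 2.2% of all genes lower. Zfp36l1 read 12.66 to 12.73 at 1 h and 10.42 to 10.67 at 2 h (-2.20 ± 0.08). Zfp36, which encodes tristetraprolin, fell by 1.18, Zfp36l2 by 1.29, and Zc3h12c, of the regnase family, by 1.41.

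Among AP-1 and related factors of the later list, 4 of 12 genes rose, against 4.21% of all genes, and none fell. Batf2 read 6.94, 7.04, 7.12 and 6.81 at 1 h and 9.48, 9.60, 9.46 and 9.85 at 2 h (2.62 ± 0.25, adjusted p = 1.91e-13). Batf read 7.11 to 7.32 at 1 h and 9.34 to 9.54 at 2 h (2.28 ± 0.13), and Mafk rose by 1.68 and Jdp2 by 1.35. Fosl2, another Fos relative, read 11.09 to 11.28 at 1 h and 10.29 to 10.54 at 2 h (-0.77 ± 0.14, adjusted p = 2.35e-06) and was not called.

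Of the NF-κB system, 3 of 20 genes rose and 1 fell (median 0.56), against 4.21% of all genes higher and 2.2% lower. Those that rose were Bcl3, a nuclear IκB protein (1.48 ± 0.13, 10.02 to 10.23 at 1 h and 11.51 to 11.70 at 2 h), and the precursor subunits Nfkb1 (1.39) and Nfkb2 (1.07). Nfkb2 stood at 0.90 after quantile normalization. The gene that fell was Nfkbid, another nuclear IκB protein (-1.41 ± 0.15, 10.16 to 10.35 at 1 h and 8.65 to 9.05 at 2 h). Among 20 TLR signalling genes, Map3k8, which encodes TPL-2, was the only call, near the 4.21% of all genes called higher. It rose by 1.48 ± 0.07 (9.36 to 9.53 at 1 h and 10.88 to 11.03 at 2 h), and the number called in this list was 2 without 1 h replicate 3.

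Secreted cytokines went both ways: 7 of 24 rose and 8 fell, against 4.21% and 2.2% of all genes. Il12b (p40, shared by IL-12 and IL-23) read 9.87, 9.95, 10.00 and 9.72 at 1 h and 12.80, 13.48, 13.68 and 12.54 at 2 h (3.25 ± 0.31, adjusted p = 1.95e-13). Its 2 h values spread widely but lay above all 1 h values. Il27 read 7.12, 7.12, 7.21 and 7.04 at 1 h and 10.69, 10.87, 10.90 and 11.38 at 2 h (3.84 ± 0.30, adjusted p = 9.25e-17). Its partner Ebi3 rose by 1.28, whereas Il23a, the specific subunit of IL-23, fell by 1.54. Il6 read 6.42, 6.33, 6.44 and 6.46 at 1 h and 9.53, 9.51, 9.24 and 9.39 at 2 h and rose by 3.01 ± 0.24. Tnfsf15 (3.14), the vasoconstrictor peptide gene Edn1 (2.53) and Il15 (2.23) also rose.

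The cytokines that fell were Csf2, Lif and Il23a, the EGF receptor ligands Areg (-1.92) and Hbegf (-1.66), the costimulatory ligand Tnfsf9 (-1.85), Vegfa (-1.72) and Osm (-1.25). Tnf differed by -0.81 ± 0.12 (15.49 to 15.76 at 1 h and 14.80 to 14.86 at 2 h) and Il1b by -0.92 ± 0.20, both short of the threshold. Il10, an anti-inflammatory cytokine, read 9.55, 9.86, 9.98 and 9.78 at 1 h and 8.96, 9.06, 9.20 and 8.73 at 2 h (-0.80 ± 0.15, adjusted p = 8.52e-06), with no overlap and no call.

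Among 20 chemokine genes, 8 rose and 2 fell, again against 4.21% and 2.2%. The CXCR3 ligand genes Cxcl9 and Cxcl10 were among the risers, beside the transcribed pseudogene Cxcl11 (above). Cxcl9 read 5.21 to 5.43 at 1 h and 9.36 to 10.03 at 2 h, and Cxcl10 read 13.56, 13.64, 13.55 and 13.64 at 1 h and 16.06, 15.95, 15.93 and 16.05 at 2 h (2.40 ± 0.16, adjusted p = 6.79e-19). Ccl5 (RANTES) read 10.24 to 10.40 at 1 h and 13.39 to 13.47 at 2 h (3.11 ± 0.16), and Cx3cl1 (2.58), Ccl22 (2.35), Ccl17 (2.24) and Cxcl3 (1.17) rose as well. The neutrophil attractants Cxcl2 (-2.29 ± 0.13, 14.34 to 14.53 at 1 h and 12.10 to 12.19 at 2 h) and Cxcl1 (-2.15 ± 0.16) fell. Cxcl3, of the same subfamily, thus changed in the opposite direction from both.

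**Figure D3:**
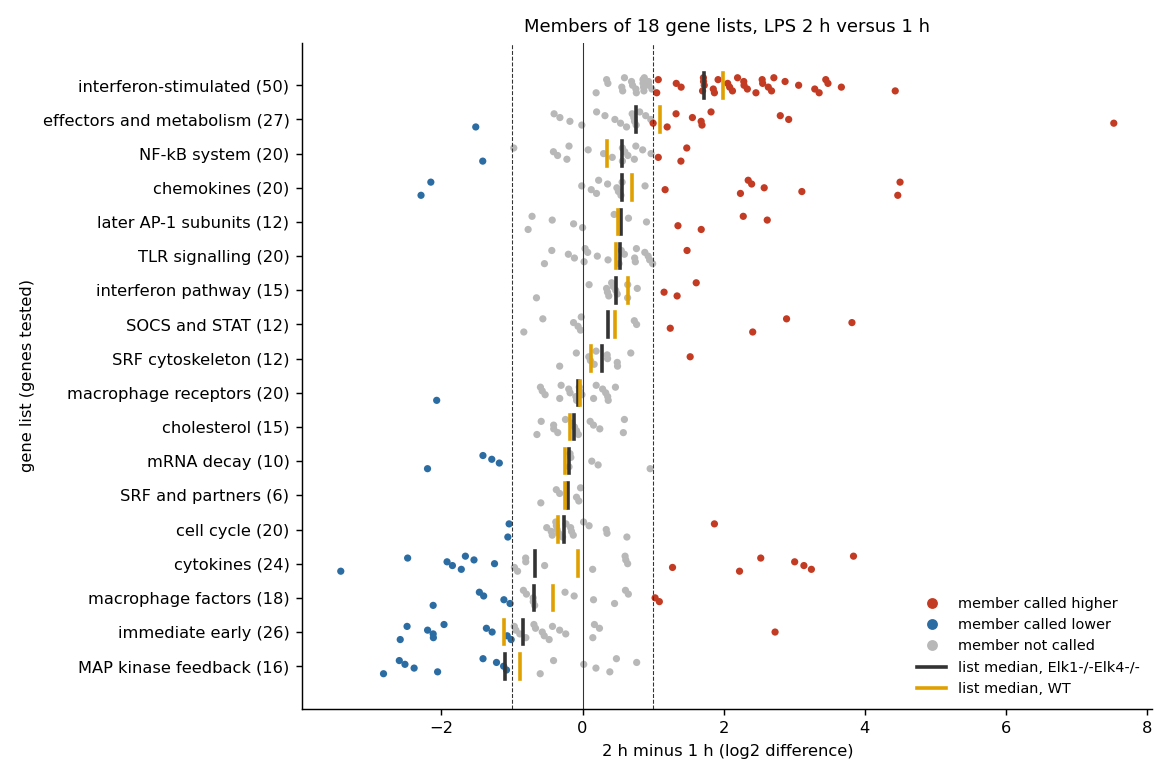
Differences between 2 h and 1 h (log2) of the tested members of the gene lists in Elk1-/-Elk4-/- BMDMs, 1 point per gene, with members called higher or lower in colour. Black bars mark the list median in these cells and yellow bars that in WT. Interferon-stimulated genes have a median of 1.72 and MAP kinase feedback genes one of -1.10.

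Of the 18 gene lists, the interferon-stimulated genes had the highest median. Of 50 measured, 32 rose and none fell (median 1.72), against 4.21% of all genes higher. As higher, 48 passed the adjusted p alone, against 34.8% of all genes. Those that did not were Oas3 (0.34) and Sp100 (0.19). Mx1, which RefSeq annotates in this genome as a transcribed pseudogene of the antiviral Mx GTPase family, read 10.22, 10.19, 10.48 and 10.21 at 1 h and 13.71, 14.19, 13.77 and 14.12 at 2 h (3.67 ± 0.25, adjusted p = 1.02e-18). Cmpk2, a mitochondrial nucleotide kinase, read 11.74, 11.75, 12.06 and 11.79 at 1 h and 15.39, 15.31, 15.26 and 15.31 at 2 h (3.48 ± 0.20, adjusted p = 4.2e-22). Rsad2 (viperin) read 13.41 to 13.85 at 1 h and 16.54 to 16.71 at 2 h (3.06 ± 0.15), and Ifit1 12.24 to 12.62 at 1 h and 15.22 to 15.29 at 2 h (2.87 ± 0.17). Every 2 h library of these genes was above every 1 h library. Gbp5, a guanylate-binding protein that acts in cell-autonomous immunity, read 10.65 to 11.00 at 1 h and 14.01 to 14.13 at 2 h (3.29 ± 0.26), and Mx2, likewise a transcribed pseudogene, rose by 3.45. Tgtp1, a GTPase that acts in the same kind of defence, read 4.36, 4.19, 4.27 and 3.77 at 1 h and 8.91, 8.58, 8.25 and 8.58 at 2 h. Gbp5, Rsad2 and Tgtp1 carry the ISRE cores printed above. Many genes of this list belong to families with closely similar copies (Mx, Gbp, Oas1, Ifit3, Tgtp), so values of single members are less certain than those of the group.

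A single library stood out within this group. In 47 of the 50 genes, 1 h replicate 3 had the highest value of the 4 libraries at 1 h. The mean over the list was 0.20 above the group's mean in that library and 0.05 to 0.08 below it in the other 3. Without it, 33 genes of the list rose and the median was 1.86. It was also the library with the high Rn45s value, and the part of this in the result was not tested.

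The genes that make and transmit the interferon signal were read as a list of their own. Ifnb1 (chr4:88522025-88522794) read 9.73, 9.40, 9.54 and 10.05 at 1 h and 8.86, 8.86, 9.11 and 9.27 at 2 h. It was lower in every 2 h library than in any 1 h library without being called (-0.65 ± 0.16, adjusted p = 2.86e-04). Its mean without LPS had been 4.83. Of 15 genes of the interferon pathway, 3 rose, against 4.21% of all genes, and none fell: Irf8 (1.61 ± 0.15, 11.61 to 11.78 at 1 h and 13.25 to 13.42 at 2 h), the kinase Ikbke (1.34) and Stat2 (1.16), a subunit of ISGF3. Stat2 stood at 0.93 after quantile normalization. Irf7 (0.64) and Irf1 (0.78) were not called.

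Of 12 genes of the SOCS and STAT list, which act on cytokine receptor signals, 4 rose and none fell, against 4.21% and 2.2% of all genes. Socs1, an inhibitor of JAK kinases, read 6.38, 6.66, 6.55 and 6.70 at 1 h and 10.59, 10.11, 10.12 and 10.76 at 2 h (3.82 ± 0.16, adjusted p = 6.8e-27). Cish read 6.42 to 6.87 at 1 h and 9.19 to 9.75 at 2 h (2.89 ± 0.19) and Stat5a 9.47 to 9.58 at 1 h and 11.81 to 11.99 at 2 h (2.41 ± 0.11), and Socs7 rose by 1.24. Socs3 differed by -0.06.

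Of 27 effector and metabolic genes, 10 rose and 1, the urokinase gene Plau, fell (-1.51), against 4.21% and 2.2% of all genes. Beside Nos2, those that rose included the arginine transporter gene Slc7a2 (2.80 ± 0.22, 6.09 to 6.45 at 1 h and 8.82 to 9.26 at 2 h) and Ass1 (1.56), which acts in the resynthesis of arginine. Saa3, an acute-phase protein, read 5.82 to 6.09 at 1 h and 8.71 to 9.08 at 2 h and rose by 2.92. Ptges, a prostaglandin E synthase, rose by 1.82 and Irg1, which makes itaconate, by 1.68. Cd40 (1.69), Lcn2 (1.33), Hk2 (1.20) and Icam1 (1.00) complete the count. Ptgs2 differed by -0.18.

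Among transcription factors of macrophages, 5 of 18 fell and 2 rose, against 2.2% of all genes lower and 4.21% higher. Id3, an inhibitor of E proteins, read 9.44 to 9.80 at 1 h and 7.35 to 7.57 at 2 h (-2.12 ± 0.17). Cebpa read 9.92 to 10.17 at 1 h and 8.48 to 8.70 at 2 h (-1.46 ± 0.09), and Tfeb (-1.12) and Bcl6 (-1.03) were also among those that fell. Those that rose were Cebpd (1.09) and Mitf (1.03). Of 20 macrophage receptors the only call was Cxcr4, which fell by 2.07 (10.31 to 10.60 at 1 h and 8.34 to 8.59 at 2 h), against 2.2% of all genes lower. No gene of the cholesterol list (15) was called, against 4.21% of all genes higher and 2.2% lower. By the adjusted p alone 3 of its genes were higher and 6 lower, against 34.8% and 27% of all genes. Of 20 cell cycle genes, Ccnd2 (cyclin D2) rose by 1.87, and Ccne2 (-1.06) and E2f2 (-1.04) fell, counts of 1 and 2 against 4.21% of all genes higher and 2.2% lower. Ccne2 stood at -0.91 without 1 h replicate 4 and at -0.96 without 2 h replicate 3, and E2f2 at -0.98 after quantile normalization and just short of the threshold without 2 h replicate 3.

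Markers of other cells were also read. Of the neutrophil list 6 of 9 genes passed the filter on low values. None was called, against 4.21% of all genes higher and 2.2% lower. Granule and calprotectin transcripts were present, with S100a9 at means of 9.15 at 1 h and 9.48 at 2 h, Ngp at 8.58 and 8.97 and Ltf at 8.15 and 8.29. S100a8 was at 8.20 at 2 h. Ly6g (0.19 and 0.39), Elane (0.44 and 0.15) and Mpo were below the filter. With the deposited values taken as plain log2, the summed linear level of that list was 1410 to 1630 at 1 h and 1700 to 2120 at 2 h. Of the lymphoid markers 1 of 9 passed the filter, and of the erythroid markers 0 of 7. Of the stromal list 2 of 7 passed, and Pdgfrb rose by 2.04 (2.89 to 3.48 at 1 h and 4.97 to 5.39 at 2 h), while Col1a2 differed by -0.09 (adjusted p = 0.711). The summed level of that list was 46.2 to 53.6 at 1 h and 73.1 to 90.2 at 2 h, against 386000 to 406000 and 421000 to 442000 for macrophage markers. Of the dendritic cell list 2 of 5 genes passed and none was called, against 4.21% of all genes higher and 2.2% lower. By the adjusted p alone these 2, Xcr1 (0.67 ± 0.11) and Zbtb46 (0.32 ± 0.13), were higher, against 34.8% of all genes. The summed level of that list was 33.4 to 40.4 at 1 h and 44.9 to 51.7 at 2 h. The part of such cells in the results was not tested.

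The response was then set against that of WT cells, to ask where loss of ELK1 and ELK4 went with a different change over the same hour. In WT 525 genes were called higher (4.42%) and 257 lower (2.16%). Of the 500 genes higher in Elk1-/-Elk4-/- cells, 402 were also called in WT (80.4% of the first list and 76.6% of the second). Of the 262 lower, 182 were shared (69.5% and 70.8%), and 0 genes were called in opposite directions. The difference between the changes was tested itself. The change was called more positive in Elk1-/-Elk4-/- cells in 19 genes (0.16%) and more negative in 20 (0.168%). By the adjusted p alone the counts were 694 (5.84%) and 773 (6.5%).

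Of the 26 immediate early genes, 3 were among the 19, against 0.16% of all genes, and the list's median difference was 0.12. These 3 fell less in Elk1-/-Elk4-/- cells or were not called there. Egr1 went in WT from 11.40 ± 0.16 (SD, n = 6) to 9.02 ± 0.35 (n = 4), and the difference of the changes was 1.49 ± 0.22, adjusted p = 2.65e-06 (limma). In WT its mean at 0.5 h was 13.32, against 8.88 in Elk1-/-Elk4-/- cells. Nr4a1 changed by -3.31 in WT and by -2.12 here (difference 1.19 ± 0.22, adjusted p = 1.23e-04). Its means at 2 h were 7.39 in WT and 7.59 here. Fosb differed by 1.37 ± 0.24, adjusted p = 3.11e-05. For Fos the difference was 0.44 ± 0.16, adjusted p = 0.0522 and for Egr3 0.79 ± 0.22, adjusted p = 0.0123, and neither was called. For Egr2 it was -0.12, with a 95% interval of -0.61 to 0.37.

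Others of the 19 rose more in Elk1-/-Elk4-/- cells. Serpina3f was at 5.65 ± 0.14 (SD, n = 4) in WT at 2 h, under the 7.80 to 9.33 of the 4 Elk1-/-Elk4-/- libraries (difference 2.87 ± 0.56, adjusted p = 2.13e-04). Tnn reached 6.03 ± 0.86 in WT (difference 2.41 ± 0.48, adjusted p = 2.88e-04). Serpina3g differed by 2.00 ± 0.54, adjusted p = 0.00822, and against WT replicates 4 to 6 only by 1.85 (limma adjusted p = 0.0679). The changes of Tgtp1 and BC002163 differed by 1.74 ± 0.59, adjusted p = 0.0418 and by 1.46 ± 0.46, adjusted p = 0.0262. On leaving out single libraries, Tgtp1 was no longer called in 13 of 18 cases, in which it differed by 1.61 to 1.80 (limma adjusted p 0.0507 to 0.0876), nor BC002163 in 5, in which it differed by 1.24 to 1.40 (0.0522 to 0.0791). Against WT replicates 4 to 6 only, they differed by 1.78 and 1.17 (adjusted p 0.114 and 0.184). The death ligand gene Tnfsf10 (TRAIL) and the activation marker Cd69 had differences of 1.37 and 1.30.

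**Figure D4:**
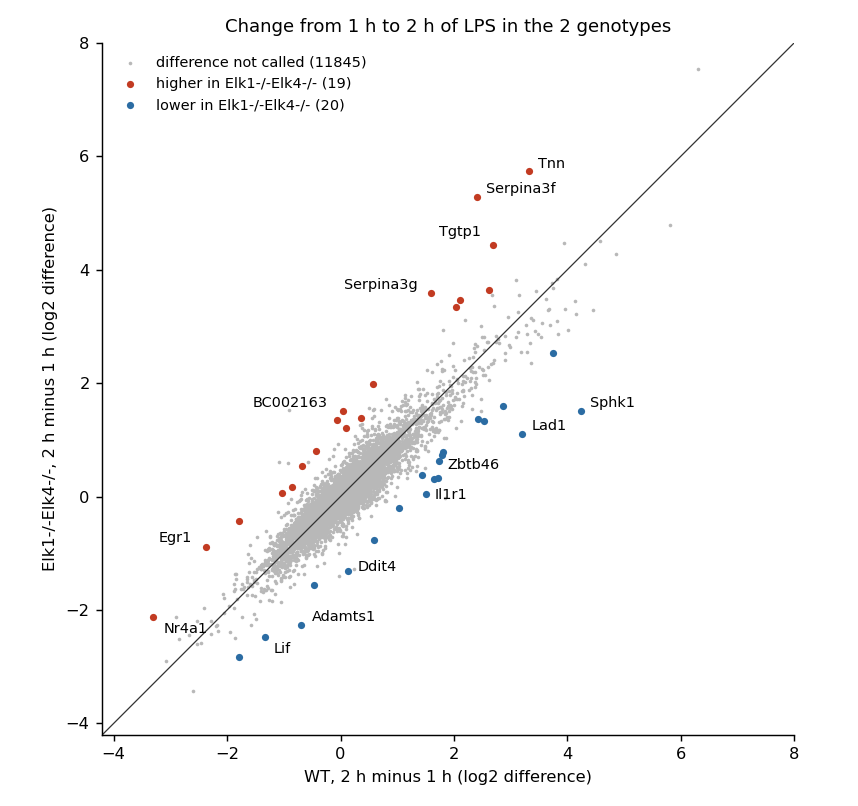
Difference between 2 h and 1 h of LPS (log2) in Elk1-/-Elk4-/- cells plotted against that in WT for the 11884 genes tested. Coloured points are the 19 genes whose change was called more positive and the 20 called more negative in Elk1-/-Elk4-/- cells, among them Serpina3f (2.87) and Sphk1 (-2.73).

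Among the 20 genes with a more negative change, several that rose in WT were at low levels in Elk1-/-Elk4-/- cells at both times. Sphk1 (chr11:116530836-116536675), a kinase that makes sphingosine 1-phosphate, read 3.21, 3.19, 2.89 and 3.21 at 1 h and 4.59, 4.84, 4.76 and 4.36 at 2 h. In WT it went from 3.93 ± 0.35 (SD, n = 6) to 8.17 ± 1.02 (n = 4), and the difference of the changes was -2.73 ± 0.32, adjusted p = 2.14e-08 (limma). Lad1, an anchoring filament protein, read 2.49 to 2.99 at 1 h and 3.55 to 4.29 at 2 h, against 6.89 ± 1.18 in WT at 2 h (difference -2.09 ± 0.38, adjusted p = 7.6e-05). Its own rise of 1.11 stood at 0.97 without 2 h replicate 4. Il1r1, the receptor of interleukin 1, read 3.70, 4.09, 4.10 and 4.01 at 1 h and 3.94, 4.17, 4.11 and 3.89 at 2 h (0.05, 95% interval -0.22 to 0.32), and its WT means were 3.70 and 5.21 (difference -1.45 ± 0.18, adjusted p = 8.3e-08). Zbtb46, a transcription factor used as a dendritic cell marker, differed by 0.32 here and by 1.72 in WT (difference -1.39 ± 0.18, adjusted p = 7.5e-08).

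Others of the 20 were at higher levels. Ddit4, an inhibitor of mTORC1, read 6.68, 6.92, 7.13 and 6.76 at 1 h and 5.40, 5.69, 5.83 and 5.35 at 2 h (-1.31 ± 0.13), whereas in WT its means were 6.61 ± 0.16 (SD, n = 6) and 6.75 ± 0.42 (n = 4). The difference of the changes was -1.45 ± 0.17, adjusted p = 2.14e-08 (limma). Fosl2 went from 11.25 to 11.83 in WT and differed by -1.35 ± 0.18, adjusted p = 4.14e-07. Adamts1, a matrix protease, read 6.94 to 7.45 at 1 h and 4.85 to 5.12 at 2 h and differed by -1.57 ± 0.34, adjusted p = 7.92e-04. Its WT means were lower, at 4.93 at 1 h and 4.24 at 2 h, near the 4.16 of WT without LPS. Its mean without LPS in Elk1-/-Elk4-/- cells was 5.93. Lif changed by -1.34 in WT and by -2.48 here (-1.14 ± 0.21, adjusted p = 8.72e-05), a difference of -0.82 against WT replicates 4 to 6 only. Errfi1 differed by -1.03 ± 0.26, adjusted p = 0.00383, and by -0.99 to -0.92 when any of 4 single libraries was left out and -0.88 after quantile normalization. Edn1 (-1.22), Lcn2 (-1.20), the prostaglandin E2 receptor gene Ptger2 (-1.11) and the glycolytic regulator gene Pfkfb3 (-1.07) were also called.

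Of the interferon-stimulated genes, 38 of 50 rose in WT, against 4.42% of all genes, with a median of 1.99. The difference of the changes was called for 1 of the 50, Tgtp1, against 0.16% of all genes more positive. That call was lost in 13 of 18 fits that left out a single library. For Ifit1 it was -0.96 ± 0.23, adjusted p = 0.00304 and for Rtp4 -0.62 ± 0.13, adjusted p = 5.06e-04, both short of the threshold. Mx1 differed by -0.07, with a 95% interval of -0.75 to 0.61, and its WT means were 9.73 at 1 h and 13.47 at 2 h. Ifnb1 read 7.95 ± 0.32 and 8.24 ± 0.31 in WT, a change of 0.28, and the difference was -0.94 ± 0.21, adjusted p = 0.00143 (limma), short of the threshold.

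**Figure D5:**
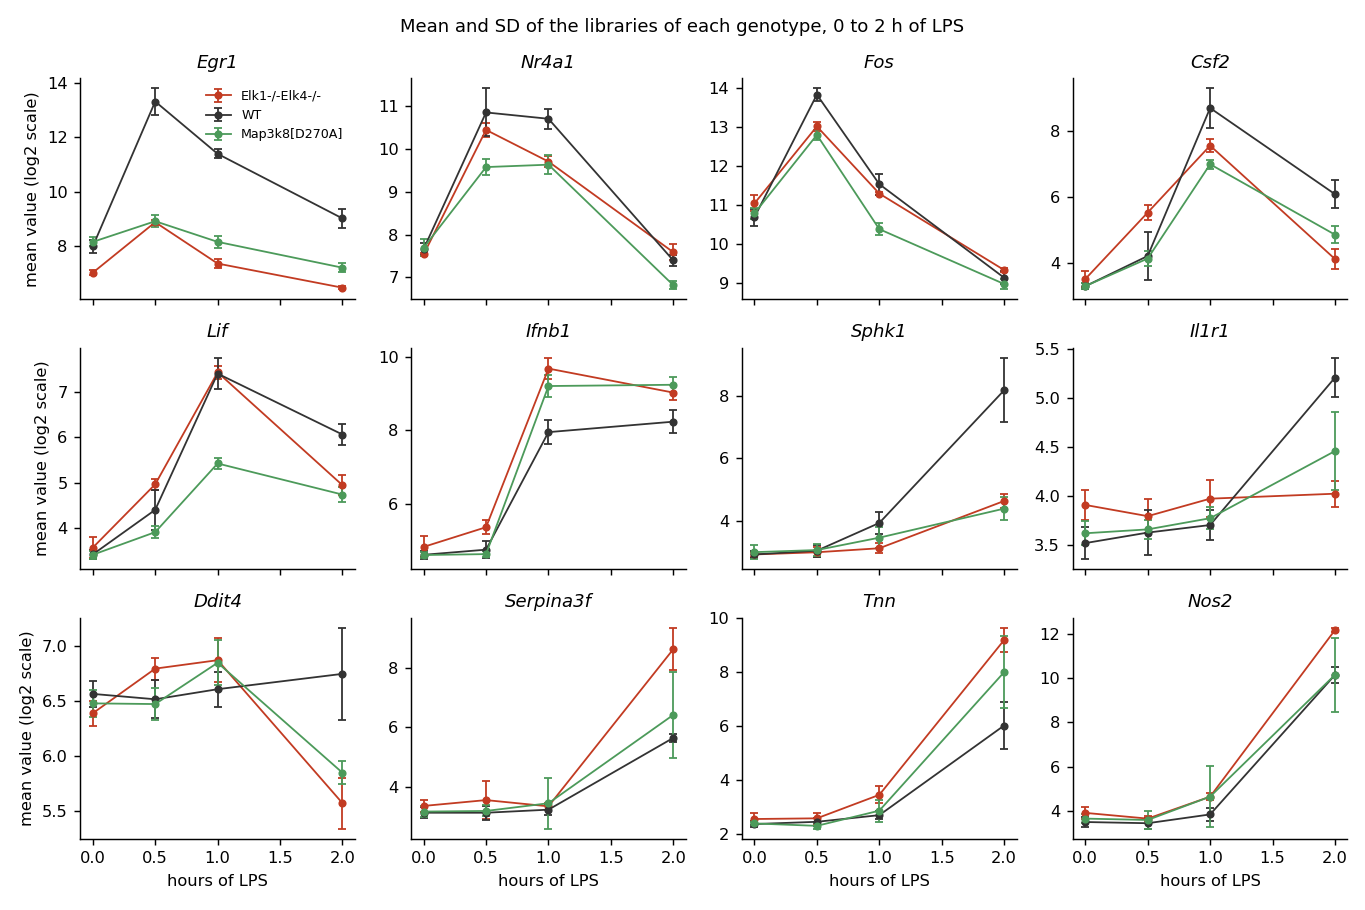
Mean value (log2 scale) of 12 genes at 0, 0.5, 1 and 2 h of LPS in Elk1-/-Elk4-/-, WT and Map3k8[D270A] BMDMs, with error bars of 1 SD over the 4 to 6 libraries of each group. At 2 h Sphk1 is at 4.64 in Elk1-/-Elk4-/-, 8.17 in WT and 4.39 in Map3k8[D270A] cells, and Serpina3f at 8.63, 5.65 and 6.42.

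In Map3k8[D270A] cells, in which TPL-2 lacks kinase activity, 470 genes were called higher (3.95%) and 177 lower (1.49%). They shared 370 of the higher calls with Elk1-/-Elk4-/- cells (74% of the first list and 78.7% of the second, the Elk1-/-Elk4-/- list being the first) and 141 of the lower (53.8% and 79.7%), with 0 opposite. The change was more positive in Elk1-/-Elk4-/- cells in 13 genes (0.109%) and more negative in 10 (0.0841%), or in 583 (4.91%) and 635 (5.34%) by the adjusted p alone. This comparison uses the same 8 Elk1-/-Elk4-/- libraries as that with WT. For several genes that differed from WT, no difference from Map3k8[D270A] was called. Sphk1 was at 4.39 there at 2 h (difference of the changes 0.58, 95% interval -0.04 to 1.20). The change of Egr1 there was -0.95 (difference 0.06, 95% interval -0.36 to 0.49). For Ddit4 the difference was -0.30, with a 95% interval of -0.63 to 0.03. Il10 went in Map3k8[D270A] cells from 9.25 ± 0.38 to 6.87 ± 0.14 (SD, n = 6 each), and its change there was -2.38 against -0.80 here (difference 1.58 ± 0.20, adjusted p = 5.39e-08, limma). Lif, Csf2, Plat and Cxcr4 differed in the other direction. For Lif the difference was -1.80 ± 0.20, adjusted p = 3.07e-09, for Csf2 -1.30 ± 0.32, adjusted p = 0.00355 and for Cxcr4 -1.06 ± 0.25, adjusted p = 0.00228. Cxcr4 stood at -0.98 without Map3k8[D270A] 1 h replicate 4. Plat, the tissue plasminogen activator, read 7.87 to 8.40 at 1 h and 8.06 to 8.52 at 2 h here (0.21, 95% interval -0.14 to 0.56) and changed by 1.48 there (difference -1.26 ± 0.22, adjusted p = 5.61e-05). Adamts1 differed by -1.20 ± 0.32, adjusted p = 0.00945, and by -0.97 with replicates 4 to 6 of Map3k8[D270A] alone (adjusted p = 0.0796). Its Map3k8[D270A] means were 5.23 at 1 h and 4.16 at 2 h.

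The Map3k8[D270A] libraries spread widely in some genes, and some differences depended on which replicates were used. With its replicates 1 to 3 only, 4 genes were called more positive and 47 more negative, and with replicates 4 to 6 only, 77 and 19. Nos2 was at 10.15 ± 1.67 (SD, n = 6) at 2 h there. Its change differed by 2.03 ± 0.64, adjusted p = 0.0303 with all libraries, by -0.19 with replicates 1 to 3 and by 4.24 with replicates 4 to 6. Serpina3f (2.31, 0.60 and 4.03) and Serpina3g (1.89, 0.27 and 3.52) were likewise called with replicates 4 to 6 and not with replicates 1 to 3. With all replicates but only the 1 h and 2 h libraries of these genotypes in the fit, Serpina3f, Serpina3g, Nos2 and Lad1 had the same differences (2.31, 1.89, 2.03 and -1.16), and none was called (limma adjusted p 0.112, 0.178, 0.277 and 0.0696). Lad1 (-1.16) and BC002163 (1.33) were not called with replicates 4 to 6 (-0.74 and 1.08). Il10 (1.86 and 1.30), Lif (-1.84 and -1.75), Csf2 (-1.22 and -1.38) and Plat (-1.18 and -1.35) were called with either set. On leaving out single libraries, the calls of Nos2, Lad1 and BC002163 were lost with 6, 7 and 10 of the 20. Without Map3k8[D270A] 2 h replicate 3 the number called more positive was 21.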

How the data were processed

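The authors sequenced RNA libraries of BMDMs as single-end, strand-specific reads, aligned them to mm10 with STAR and quantified RefSeq genes with RSEM, and the submitters' processing notes list STAR 2.5.1b, RSEM 1.2.29 and DESeq2 1.10.1. The deposited table holds normalized values on a log2 scale, -2.4 to 19.81 in the 62 libraries used, for 18098 genes. The sources used here do not name the transformation, and no counts or depths were used. No column of the authors' own comparisons was used.

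From these values, 11884 genes that reached 10 on the linear scale (the deposited values taken as plain log2) in 4 or more of the 62 Elk1-/-Elk4-/-, WT and Map3k8[D270A] libraries (0 to 2 h of LPS) were fitted with limma 3.58.1 in R 4.3.3, with a mean for each group. Adjusted p values are Benjamini-Hochberg values over all genes tested, and the differences between genotypes are interaction contrasts. The other 57 libraries of the series were not used here. The procedure was tested on simulated data. Named genes were the 12 largest rises and 12 largest falls without overlap and with a mean of at least 5 in the higher group, the 6 largest differences in each direction from WT and 4 from Map3k8[D270A], the genes the study names, and up to 4 examples of each list. Other list members and called genes were named after their values were seen. The members and gene lists were chosen with earlier results of these data known. Positions were from GRCm38.p6 RefSeq, matched for 11387 genes by symbol and 455 by synonym, and 42 had none. Alternatives covered the filter, threshold, scaling, prior, libraries in the fit, replicate block and leaving out libraries. The values of 1 list member are not reported here.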

Additional observations from a re-analysis of the deposited data

Results flagged for a closer look

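Of 174 groups of 4 libraries examined for a single library far from the others, 9 held one, and chance alone flags about 1 in 20 groups. Groups from the same libraries are not independent. At 1 h, replicate 3 was high in Cmpk2 (12.06) and Mx1 (10.48) and low in Sphk1 (2.89). Replicate 1 was high in Elk1 (6.42) and Fos (11.36), replicate 2 in Srf (10.39) and Stat5a (9.58), and replicate 4 was low in Map3k8 (9.36). At 2 h, replicate 1 was high in Serpina3g (9.34).

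The change from 1 h to 2 h differed from that in WT by limma's interaction test for 15 of the genes followed singly. It was more positive in Elk1-/-Elk4-/- cells for Serpina3f (2.87), Tnn (2.41), Serpina3g (2.00), Tgtp1 (1.74), Egr1 (1.49), BC002163 (1.46) and Nr4a1 (1.19). It was more negative for Sphk1 (-2.73), Lad1 (-2.09), Adamts1 (-1.57), Ddit4 (-1.45), Il1r1 (-1.45), Zbtb46 (-1.39), Lif (-1.14) and Errfi1 (-1.03).

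Against Map3k8[D270A] the same test gave 11 such genes, and the 4 largest in each direction had again been chosen by it. Over all genes tested, 0.109% were more positive and 0.0841% more negative. The change was more positive for Serpina3f (2.31), Nos2 (2.03), Serpina3g (1.89), Il10 (1.58) and BC002163 (1.33), and more negative for Lif (-1.80), Csf2 (-1.30), Plat (-1.26), Adamts1 (-1.20), Lad1 (-1.16) and Cxcr4 (-1.06). Both comparisons use the same Elk1-/-Elk4-/- libraries, and genotype and experiment cannot be told apart in either.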

How the results depend on the processing

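The 500 higher and 262 lower calls depended mainly on the threshold. A log2 difference of at least 0.693 gave 907 and 626, one of at least 0.585 gave 1107 and 898, and the adjusted p alone 4136 and 3205. For the difference from WT these thresholds gave 50 and 59, 84 and 100, and 694 and 773, and for that from Map3k8[D270A] 60 and 42, 93 and 86, and 583 and 635. With Map3k8[D270A] replicates 1 to 3 only the counts were 4 and 47, of which 3 and 9 were among the 13 and 10, and with replicates 4 to 6 only 77 and 19 (12 and 7 shared). Against WT replicates 4 to 6 only the counts were 17 and 19, of which 13 and 16 were among the 19 and 20. Leaving out single libraries gave 491 to 519 higher and 243 to 279 lower, 15 to 21 and 18 to 25 against WT, and 9 to 21 and 8 to 13 against Map3k8[D270A]. At a threshold of 0.693, 2 of 12 later AP-1 genes were lower, and 7 of 20 NF-κB genes were higher and 2 lower. At the same threshold 8 of 20 TLR signalling genes and 17 of 27 effectors were higher, and 9 of 18 macrophage factors lower. These counts stand against 907 higher and 626 lower of all 11884 genes at that threshold. Without 1 h replicate 3, an alternative chosen after seeing the data, 2 TLR signalling genes were higher. Values near 0 changed sign: on leaving out single libraries, Elk1 ranged from -0.06682 to 0.01196 (positive without 1 h replicate 1 or 2 h replicate 3), Elk4 from -0.1023 to 0.004805 (positive without 2 h replicate 3) and Il1r1 from -0.0409 (without 1 h replicate 1) to 0.09672. After quantile normalization Elk1 was at 0.01303 and Idi1 at -0.07057. The difference of Nos2 from Map3k8[D270A] was -0.1855 with replicates 1 to 3 only. The cause of these changes was not tested. With the replicate block the counts were 500 and 262, 21 and 20 against WT, and 15 and 10 against Map3k8[D270A]. Same-numbered Elk1-/-Elk4-/- libraries correlated at 0.049 to 0.32, and 3 of the 4 libraries at 1 h but 2 of the 4 at 2 h matched their own number best. The numbers were not taken as pairs because the labels give no shared source and 1 of the 4 correlations, 0.049, was close to 0. A pseudocount was not varied because the values are not linear. Quantile normalization moved the median change of all genes from 0.0288 to -0.0237, and the share of calls that were higher from 65.6% to 63.1%. Fitting only the 1 h and 2 h libraries gave 21 and 20 calls against WT and 9 and 9 against Map3k8[D270A]. Depth is unknown, so values near the bottom of the scale are the least certain.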

Other observations

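The mean levels of the cell cycle list ran in the same order of replicate numbers at 1 h and at 2 h. At 1 h, replicate 4 had the highest value in 16 of 20 genes of the list, and its mean over the list was 0.16 above the mean of its group. At 2 h, replicate 4 was highest in 13 of 20, at 0.11 above. Replicate 3 had the lowest list mean at both times, at -0.20 and -0.19. The labels do not say whether libraries with the same number came from the same mouse.

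At 2 h the libraries fell into different orders for different genes. Replicates 1 and 4 were the higher pair for Serpina3f, Fscn1 and Socs1, and replicates 2 and 3 for Il12b and Il10. The interferon-stimulated genes were highest in replicate 2 in 21 of 50 genes, in replicate 3 in 17, in replicate 4 in 7 and in replicate 1 in 5.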
